A study of Homo sapiens with 8 samples.

Results

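The open chromatin of chromosome 12q13 was followed through AIRE induction and etoposide treatment in a human cell line. The interval was chosen with earlier results of these data known, and within it the members were taken by position. They were every hg19 window of chromosome 12 with a start from 48000001 to 58500000, whatever its signal. This gave 4093 windows of 150 bp out of 256141 in the deposited table, or 1.60%. The label 12q13 names the band that holds most of this interval, whose ends need not fall on the borders of the band.

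FAIRE-seq was done on AIRE-Tet cells, a Tet-On Advanced derivative of HEK293, a line from human embryonic kidney, in which doxycycline switches on human AIRE. The 4 groups each had 2 libraries from independent biological replicates. Control cells received neither agent, Dox cells received 1.5 µM doxycycline, Etop cells received 2 µM etoposide for 24 h, and DoxEtop cells received etoposide for 24 h after 24 h of AIRE induction with 1.5 µM doxycycline. All 4 groups carried the inducible transgene, and all were grown with G418 in serum free of tetracycline. The time in doxycycline of the Dox group is not given in the sources used here. The model is 1 engineered kidney-derived line, FAIRE counts give no RNA level with which to check the line or the induction, and cells given doxycycline without the transgene were not analysed here, so effects of doxycycline and of AIRE cannot be told apart. In what follows the 4 Dox and DoxEtop libraries are called induced and the 4 Control and Etop libraries not induced.

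FAIRE recovers the DNA that fixed nucleosomes do not carry out of the aqueous phase in a phenol-chloroform step, so it is richest in active promoters and enhancers. AIRE, the autoimmune regulator, is a chromatin-associated transcription regulator best known from medullary thymic epithelial cells, where it drives expression of tissue-restricted genes, and etoposide traps topoisomerase II on cleaved DNA. Chromosome band 12q13 is known as a gene-dense stretch that carries the HOXC cluster of developmental transcription factors, the type II keratin genes of epithelia, alpha-tubulin genes and a group of olfactory receptor genes. No gene was assigned to any window here, so the results are given by position.

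The 4093 windows started every 50 bp and overlapped, so they were merged into 522 regions wherever gaps were 100 bp or less. The regions had a median width of 400 bp and ranged from 150 to 2150 bp. They covered 272550 bp, or 2.60% of the 10.5 Mb interval, from 48099251 to 58335850. The longest stretch without a window ran for 1057450 bp, from 54982401 to 56039850, and the next longest for 325050 bp. The median gap between neighbouring regions was 5000 bp. Summed over the 8 libraries, a 12q13 window held 114 to 458 counts, with a median of 168 against 160 over the table. Levels are given as CPM, the counts scaled to the trimmed-mean-adjusted column total. Mean levels in 12q13 ran from 2.45 to 9.94 CPM with a median of 3.57, against a median of 3.42 and a maximum of 127 over all windows. The interval thus held windows of ordinary strength and none of the strongest of the table.

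Column totals ran from 4489871 to 8275911 and are sums over overlapping windows, not library depths. The not induced columns included the largest totals, and the table lists only windows with a summed count of at least 111. That minimum can favour windows that are high in the not induced libraries, and its part in the counts of lower windows was not tested. Replicates varied beyond counting error in 12q13, where chi-square divided by its degrees of freedom was 1.73 to 2.79 over 1 window per region. Over the 4093 overlapping windows the log2 CPM of replicate libraries correlated at 0.320 to 0.583. Libraries of different groups could correlate as well as replicates did, at 0.508 for the first Control and Dox libraries against 0.492 for the Control pair. That was the highest pair of an induced with a not induced library, and the lowest such pair stood at -0.0914. Pairs of induced libraries ran from 0.481 to 0.586 and pairs of not induced libraries from 0.320 to 0.492.

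AIRE induction was accompanied by a smaller share of signal in 12q13. The interval took 1.67% and 1.74% of the counts in the Control libraries and 1.77% and 1.69% in the Etop libraries. It took 1.56% and 1.53% in the Dox libraries and 1.56% and 1.59% in the DoxEtop libraries. All 4 induced libraries lay below all 4 others, at 1.56% ± 0.0217 (SD, n = 4) against 1.72% ± 0.0478 (SD, n = 4), a ratio of 0.909. The rest of chromosome 12 took 3.49% ± 0.0179 (SD, n = 4) of the counts in induced libraries and 3.41% ± 0.0484 (SD, n = 4) in the others, with overlap between the groups. Of 24 chromosomes, 4 had every induced share below every other and 6 had every one above. These shares are described without a test, in an interval chosen with earlier results of these data known.

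**Figure D1:**
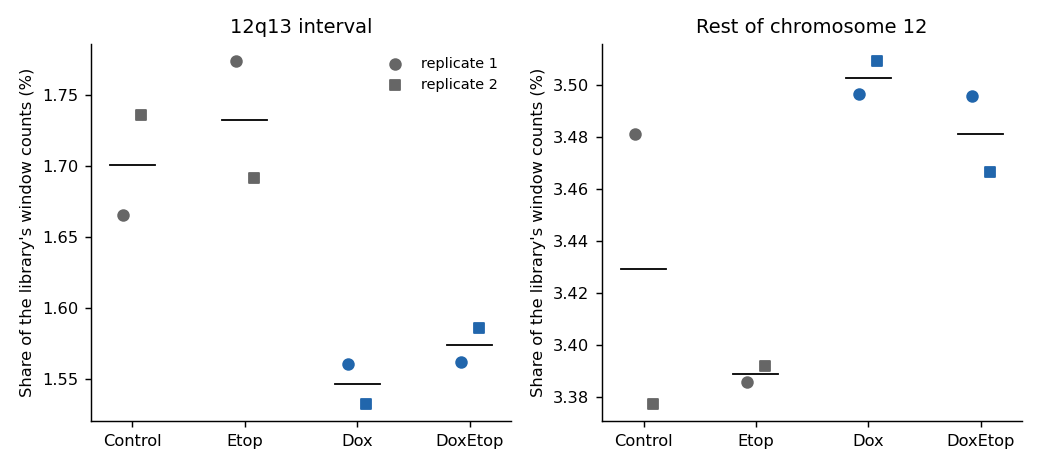
Share of each library's window counts (percent) in 12q13 and in the rest of chromosome 12, with 1 point per library, replicate by symbol and a bar at the mean of each group of 2; the axes do not start at 0. The 4 induced libraries (blue) lie between 1.53% and 1.59% in 12q13, below the 1.67% to 1.77% of the libraries without induction (grey), while induced and other libraries overlap on the rest of the chromosome.

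Window by window, AIRE induction went with loss of signal at many 12q13 sites and with gain at few. In a model with terms for induction and etoposide over all 8 libraries (edgeR quasi-likelihood test, called at an adjusted p under 0.05 over all 256141 windows), 446 windows were lower and 23 higher in induced libraries. These 469 calls were 11.5% of the 4093 windows, against 7.44% of all windows. Lower calls made up 10.9% of 12q13 windows against 6.17% of all windows, and higher calls 0.562% against 1.27%. The rest of chromosome 12 had 498 lower and 154 higher windows among 8975. The median log2 fold change was -0.11 in 12q13, 0.08 on the rest of the chromosome and 0.04 over all windows. Called losses in 12q13 had a median log2 fold change of -1.47, close to the -1.49 of all called losses, and called gains one of 1.05 against 1.17. The 12q13 share was thus higher for losses and lower for gains than the background, while the typical size of a called loss was much like that elsewhere. These differences from the rest of the table were not tested. Since the interval was chosen with earlier results of these data known, the differences are no independent support for a trait of 12q13.

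The same direction appeared without the model. In 476 windows, or 11.6%, all 4 induced libraries were below all 4 others in CPM, where 7.49% of all windows did the same. In 161 windows, or 3.93%, they were all above, where 4.98% of all windows did. Counted as merged regions with Simes' combination of the edgeR p-values, 125 of the 522 regions were lower and 2 were higher. That was 23.9% lower against 12.9% of all regions and 0.383% higher against 1.42%. Groups did not overlap at the leading window in 104 of these 127 regions (81.9%), near the 80.1% of all 5108 called regions. Limma-voom, a test on log counts, called 13 of the 4093 windows and 1 of the 522 regions, so the number of calls rests on the test. Without Control replicate 2, Dox replicate 2 or DoxEtop replicate 1 the windows called fell to 189, 291 and 228, and without Control replicate 2 or DoxEtop replicate 1 the regions called fell to 53 and 72.

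**Figure D2:**
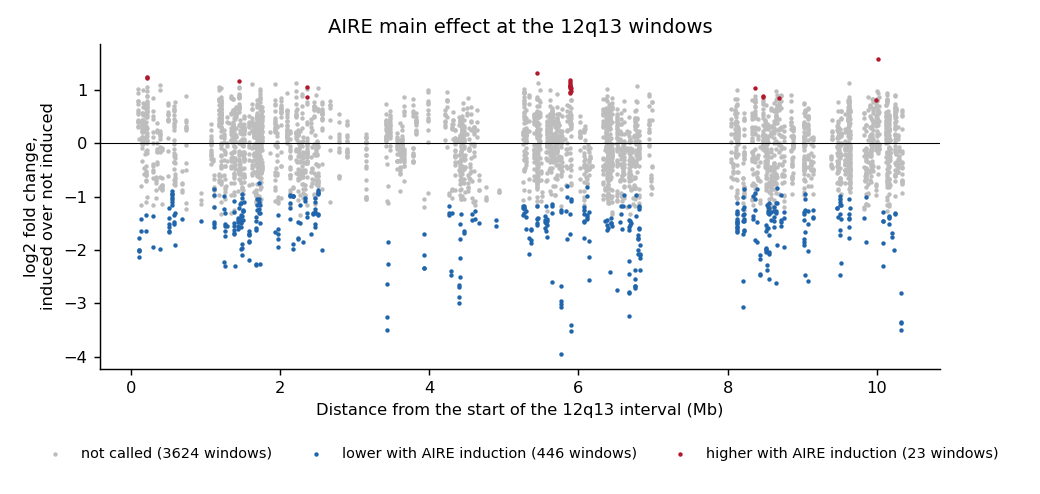
The log2 fold change of the AIRE main effect, induced over not induced libraries, against distance in Mb from the start of the 12q13 interval, with 1 point per window: 446 called lower (blue), 23 called higher (red) and the rest not called (grey). Losses are spread along the interval outside the stretch of 1057450 bp that holds no window, and the higher windows, which overlap in part, lie in 11 regions.

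The losses were spread along the interval. In segments of 1 Mb, the share of windows called lower was 12.6% of 254 windows in the segment from 48 Mb, 12.1% of 668 from 49 Mb, 11.3% of 328 from 50 Mb and 5.06% of 178 from 51 Mb. It was 10.4% of 230 windows from 52 Mb, 10.6% of 502 from 53 Mb and 10.4% of 633 from 54 Mb. The segment from 55 Mb held no window. The share was highest from 56 Mb, at 15.4% of 546 windows, and came to 8.57% of 490 from 57 Mb and 6.82% of 264 in the last part from 58 to 58.5 Mb. Lower windows were therefore found in all 10 segments that held windows. Of the 23 higher windows 12 were in the segment from 53 Mb, but these overlap in part and 9 of them belong to 1 region.

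Narrow regions held the larger shares of lost windows. Regions no wider than 300 bp numbered 188, and 84 of their 451 windows were lower (18.6%), none was higher and the median log2 fold change was -0.39. In the 146 regions of over 300 and up to 500 bp, 140 of 853 windows were lower (16.4%) and 2 higher, with a median of -0.32. For the 136 regions between 500 and 1000 bp wide the figures were 129 of 1613 lower (8.00%) and 15 higher, with a median of -0.02. In the 52 wider regions they were 93 of 1176 lower (7.91%) and 6 higher, with a median of -0.01. Over the whole table the shares of lower windows in the same classes were 9.93%, 7.27%, 4.92% and 4.97%, so narrow regions held the larger shares there too. By mean level over the 8 libraries, 12.9% of 12q13 windows at 2.45 to 2.98 CPM were lower (median log2 fold change -0.21). The shares were 11.5% up to 3.57 CPM, 11.2% up to 4.66 CPM and 7.92% above that (median 0.008). The part of signal level in the width trend was not tested. Region width also depends on which windows reached the minimum summed count of 111 over these same libraries. The part of that minimum in the width trend was not tested either.

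A lower window was present in 154 of the 522 regions (29.5%, against 16.2% of all regions) and a higher one in 11 (2.11% against 4.58%). Both kinds were present in 5 regions (0.958% against 0.61%). All windows were called lower in 36 regions (6.90% against 3.88%), of which 13 held at least 4 windows (2.49% against 1.18%). Of the 154 regions with a lower window, 90 had no window with a log2 fold change above 0 and 64 had at least 1. That was 58.4% without such a window, near the 60.3% of all regions with a lower window.

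Of the regions called lower, 8 are described by the window of smallest p, as the rule given with the methods sets out. The rule took the lowest fold changes among regions whose groups did not overlap in CPM. The separation of induced from other libraries in these 8 windows was therefore set by the choice. The lowest fold change among the 8 was in the window 53773651-53773800. It held 19 and 51 counts in the Control libraries and 45 and 27 in the Etop libraries, and 1 and 1 in the Dox libraries and 2 and 3 in the DoxEtop libraries. Every induced library was below every other, and no induced library held more than 3 counts. The level was 0.344 ± 0.184 CPM (SD, n = 4) in induced libraries and 5.58 ± 2.31 CPM (SD, n = 4) in the others, a log2 fold change of -3.94 (SE 0.527, edgeR adjusted p = 7.51e-07). The pooled level was 15.5-fold lower, with a 95% interval of 7.31 to 39.1 that covers counting error only.

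This window is the left edge of a region of 7 windows, 53773651-53774100, of which 3 were lower. Towards the other edge, at 53773951, induced libraries averaged 3.51 CPM against 2.23 CPM. A separate region only 250 bp upstream, 53773151-53773400, was lower in all 3 of its windows. Its first window held 19 and 36 counts in Control, 52 and 27 in Etop, 8 and 0 in Dox, and 1 and 3 in DoxEtop. All 4 induced libraries were again below the others, and the log2 fold change was -3.06 (edgeR adjusted p = 4.13e-05). The called losses here thus took in the whole of 1 region and part of its neighbour.

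The window 51441951-51442100 lay in a region whose called losses were on 1 side. It held 34 and 73 counts in Control, 70 and 19 in Etop, 7 and 3 in Dox, and 2 and 1 in DoxEtop. The lowest library without induction held 19 counts, above the highest induced library at 7. Levels were 0.642 ± 0.50 CPM (SD, n = 4) and 7.31 ± 3.69 CPM (SD, n = 4), with a log2 fold change of -3.49 (SE 0.447, edgeR adjusted p = 3.37e-07). In the same region of 14 windows, 51441501-51442300, the window at 51441651 stood at 6.52 CPM in induced and 5.18 CPM in other libraries (log2 fold change 0.32, edgeR adjusted p = 0.508). In all, 5 windows of the region were called lower, and the 5 at its other edge had log2 fold changes above 0. Between and beyond them, windows without a call were also below 0, such as 51442101 with a log2 fold change of -1.11 (edgeR adjusted p = 0.0528).

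The window 54520501-54520650 was the only called one of 27 in the region 54519851-54521900. It held 16 and 36 counts in Control, 55 and 18 in Etop, 3 and 3 in Dox, and 4 and 4 in DoxEtop, so the induced libraries lay close together and below all others. Levels were 0.693 CPM in induced and 4.79 CPM in other libraries, with a log2 fold change of -2.75 (edgeR adjusted p = 6.70e-05). On either side, the window at 54520001 stood at 5.45 CPM in induced against 3.63 CPM in other libraries, and the one at 54520851 at 6.33 against 5.73 CPM. The nearest windows, at 54520301 and 54520751, had no called difference. No window started between either of them and the called one, so the extent of the loss is not resolved.

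A similar profile with 7 of 12 windows called lower was seen in the region 56211351-56212050. Its lowest point, the window at 56211601, held 23 and 68 counts in Control, 27 and 19 in Etop, 1 and 2 in Dox, and 5 and 4 in DoxEtop. The level was 0.589 CPM in induced and 5.25 CPM in other libraries (log2 fold change -3.07, edgeR adjusted p = 2.63e-05). All 12 windows of this region had a fold change below 0.

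**Figure D3:**
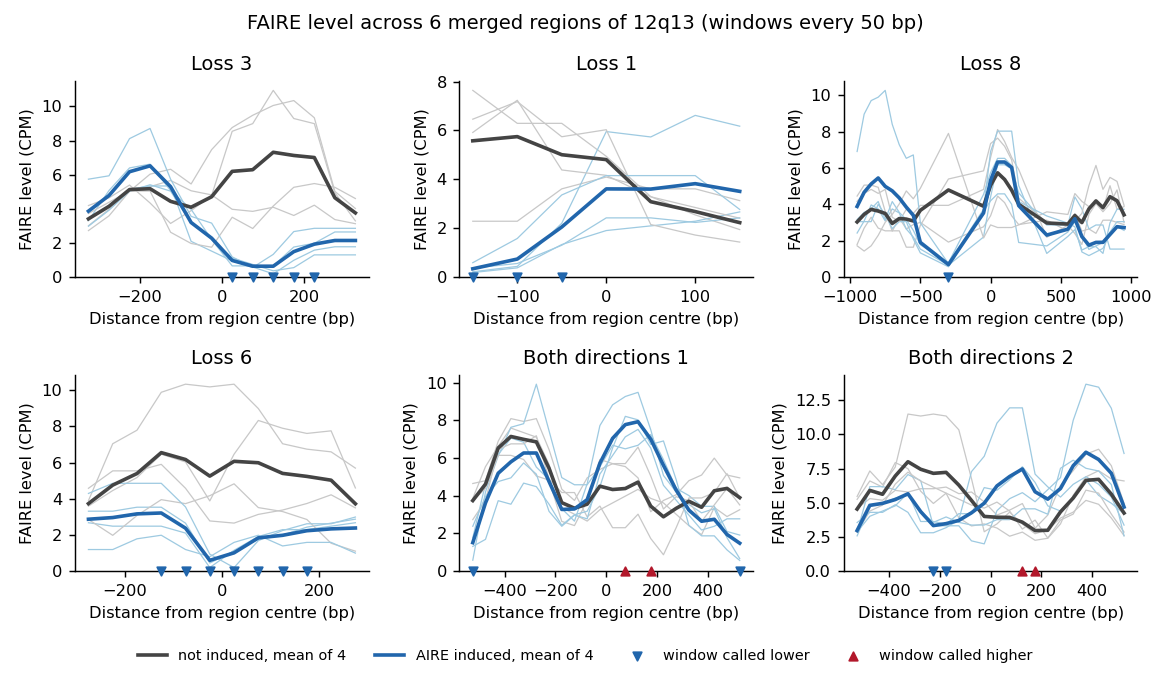
CPM against distance in bp from the centre of 6 regions, as the mean of 4 induced (blue) and 4 other libraries (black), with each library as a thin line and triangles at windows called lower or higher. The panels are, in order, the regions that start at 51441501, 53773651, 54519851, 56211351, 50360701 and 53894351. The induced mean drops to under 1 CPM over part of the first 4, and the last 2 hold lower and higher windows. Lines run straight across steps that hold no window, as on both sides of the called window of the region at 54519851.

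The other described losses filled their regions. In the region 58329801-58330100 all 4 windows were lower, with log2 fold changes from -3.49 to -2.80. Its first window held 37 and 51 counts in Control, 36 and 28 in Etop, 4 and 2 in Dox, and 1 and 4 in DoxEtop, and had a log2 fold change of -3.37 (edgeR adjusted p = 1.25e-06). Of the 8 losses this one had the most even levels without induction, at 5.85 ± 1.38 CPM (SD, n = 4).

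All 6 windows of the region 54674301-54674700 were lower. The first held 18 and 36 counts in Control, 67 and 12 in Etop, 4 and 3 in Dox, and 0 and 3 in DoxEtop (log2 fold change -3.24, edgeR adjusted p = 3.72e-05). Etop replicate 1 stood well above the other libraries there. Both windows of the region 53902451-53902650 were lower. The first held 38 and 47 counts in Control, 42 and 7 in Etop, 1 and 3 in Dox, and 0 and 4 in DoxEtop (log2 fold change -3.52, edgeR adjusted p = 1.29e-05). The 7 counts of Etop replicate 2 were the closest that a library without induction came to the induced ones.

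These 8 losses kept an edgeR adjusted p under 0.05 with each library left out in turn. They were chosen for low fold changes and separated groups in these same libraries, so this is no independent support. Each held 125 to 196 counts in the libraries without induction and 7 to 14 in the induced ones, and so passed the table's minimum through the former, and the part of that minimum in these tests was not tested. None of the 8 was called by limma-voom, whose adjusted p ran from 0.267 to 0.372. With offsets fitted by loess along the mean log count, only the window at 51441951 was called (log2 fold change -2.07, edgeR adjusted p = 0.00176). In that fit the windows at 53902451, 54674301 and 53773151 moved above 0, to 0.27, 0.22 and 0.10.

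Losses over a whole region reached beyond those described. Among the 13 regions of at least 4 windows that were lower throughout, chosen after their values were seen, the region 52397901-52398200 had log2 fold changes from -3.00 to -2.66 in its 4 windows. The region 54762451-54762800 had log2 fold changes from -2.72 to -2.38 in 5 windows. Within the 1 Mb from 54 Mb lay 5 of the 13 such regions: 54137351-54137650, 54674301-54674700, 54762451-54762800, 54793101-54793450 and 54826001-54826350. That segment also held 103 of the 522 regions, the most of any segment. In 26 of the 4093 windows at least 1 induced library held 0 counts, while 1 window had 0 counts in a library without induction. The shares were 0.635% and 0.0244%, against 0.346% and 0.0535% of all windows. The window without counts in a library without induction, 54422751-54422900, held 0 counts in Etop replicate 1 and 37, 16 and 20 in the other libraries without induction, and had a log2 fold change of 0.08. A count of 0 in 1 library allows up to 3 counts by counting error.

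**Figure D4:**
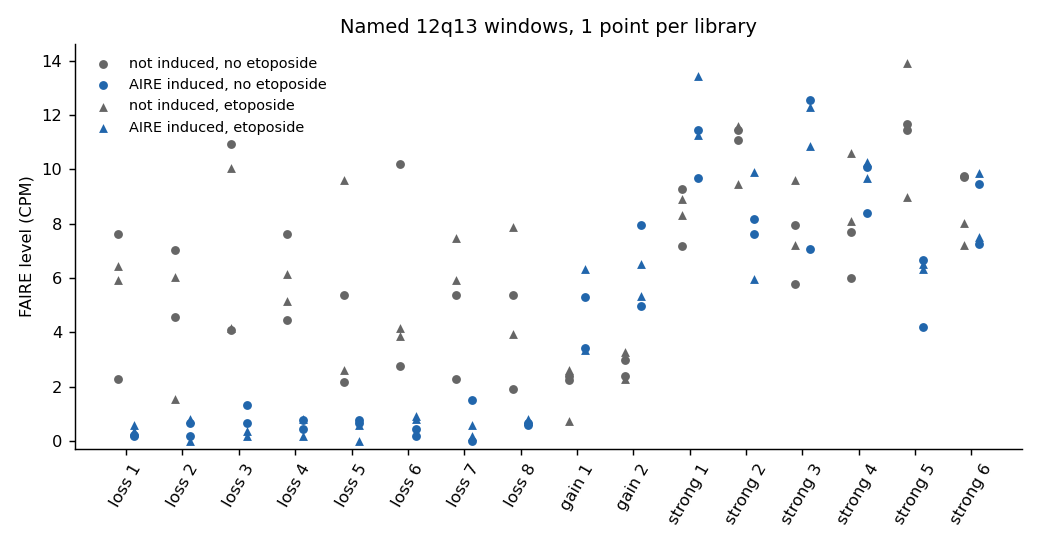
CPM of each library (blue induced, grey not induced, triangles with etoposide) in 16 windows: losses 1 to 8 start at 53773651, 53902451, 51441951, 58329801, 54674301, 56211601, 53773151 and 54520501, gains 1 and 2 at 48213851 and 53893451, and strong windows 1 to 6 at 56498201, 53845701, 49690401, 49463751, 48551301 and 53693401. Induced libraries lie below all others in the 8 losses and above all others in both gains, as the rule that chose these windows required. The strong windows were chosen by level, and their differences are smaller.

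The 23 higher windows, which overlap in part, lay in 11 regions. Of these windows 9 lay in the region 53893101-53893700, which had 10 windows with log2 fold changes from 0.53 to 1.18. The described window at 53893451 held 20 and 20 counts in Control and 16 and 15 in Etop, against 26 and 36 in Dox and 35 and 27 in DoxEtop. All induced libraries were above all others in CPM, as the rule for described gains required. The level was 6.19 ± 1.34 CPM (SD, n = 4) against 2.75 ± 0.473 CPM (SD, n = 4), with a log2 fold change of 1.18 (SE 0.319, edgeR adjusted p = 0.0124). The change was 2.29-fold in pooled level, far smaller than the deepest losses.

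The surroundings of this gain changed in both directions. The next region, 53894351-53895550, starts 650 bp further on and had 2 lower windows, at 53894651 and 53894701 (log2 fold changes of -1.09 and -1.05), and 2 higher windows, at 53895001 and 53895051 (1.04 and 0.98). The lost region 53902451-53902650, described above, follows after a further 6900 bp without a window. Regions that gained and regions that lost signal thus lay next to each other here.

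The second described gain was the window 48213851-48214000 in the region 48213651-48214050, where 2 of 6 windows were higher. It held 20 and 15 counts in Control and 5 and 12 in Etop, against 18 and 24 in Dox and 34 and 17 in DoxEtop. In counts the groups overlapped, and in CPM they did not, since the Dox and DoxEtop columns had smaller totals than the Control columns. Levels were 4.61 ± 1.46 CPM (SD, n = 4) against 2.00 ± 0.870 CPM (SD, n = 4), with a log2 fold change of 1.23 (SE 0.394, edgeR adjusted p = 0.0411). This call was lost when Control replicate 2, Dox replicate 2, Etop replicate 1 or DoxEtop replicate 1 was left out (edgeR adjusted p of 0.0887 to 0.227), and that at 53893451 without Dox replicate 2 or DoxEtop replicate 1 (0.104 and 0.0619). Limma-voom called neither gain, with adjusted p of 0.176 and 0.0527.

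Outside these regions the remaining gains were single windows or pairs. The largest fold change among them was at 58015001, chosen after its value was seen, with 13 and 9 counts in Control, 4 and 10 in Etop, 20 and 21 in Dox, and 35 and 8 in DoxEtop (log2 fold change 1.58, edgeR adjusted p = 0.0155). There DoxEtop replicate 2 lay among the libraries without induction. In the region 50360701-50361900 the window at 50361401 was higher, at 6.997 against 3.44 CPM (log2 fold change 1.05, edgeR adjusted p = 0.0194), while 2 windows of the region were lower, the lowest at a log2 fold change of -1.38. The other 3 regions with calls in both directions were 49453201-49455100, 53440001-53441000 and 56367201-56368450, each with 1 higher window.

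At most of the strongest sites of the interval the summit did not pass the test. The 6 regions with the highest mean level are described by their strongest window. The window at 56498201, the strongest of all, stood at 11.5 ± 1.53 CPM (SD, n = 4) in induced and 8.42 ± 0.909 CPM (SD, n = 4) in other libraries (log2 fold change 0.44, edgeR adjusted p = 0.225). The window at 53845701 stood at 7.91 against 10.9 CPM (log2 fold change -0.46, edgeR adjusted p = 0.216). Neither passed the test, but 3 of the 7 windows in the region of the latter, 53845551-53846000, were lower, down to a log2 fold change of -1.79 at its first window.

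The windows at 49690401, 49463751 and 53693401 had log2 fold changes of 0.48, 0.25 and -0.03, with edgeR adjusted p of 0.207, 0.540 and 0.961. In the region 49463351-49464050, which holds the second of these, 2 of 12 windows were lower, the lowest at -1.40 on the log2 scale. The exception among the 6 was the window at 48551301, with 95 and 78 counts in Control, 97 and 41 in Etop, 35 and 19 in Dox, and 35 and 32 in DoxEtop. All induced libraries were below the others, at 5.93 ± 1.17 CPM (SD, n = 4) against 11.5 ± 2.02 CPM (SD, n = 4), with a log2 fold change of -0.96 (SE 0.238, edgeR adjusted p = 0.00584). Of the 9 windows of its region, 48551101-48551650, 7 were lower. It was also called by limma-voom (adjusted p = 0.0374), but not by edgeR without Dox replicate 2 (adjusted p = 0.0538).

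Without etoposide, AIRE induction again went with losses. In Dox against Control, 2 libraries against 2, edgeR called 70 windows lower and none higher, or 1.71% of the windows against 0.864% of all windows (0.848% lower and 0.0156% higher). The called losses had a median log2 fold change of -2.63. At an unadjusted p under 0.05, 538 windows were lower and 98 higher (15.5% of windows, against 10.9% of all windows), and neither DESeq2 nor limma-voom called a higher window.

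The window at 53773651, whose counts are given above, had 2 counts in both Dox libraries together and 70 in both Control libraries (log2 fold change -4.44, edgeR adjusted p = 0.00323). The ratio of pooled levels was 22.8, with a 95% counting interval of 6.09 to 192. At 56211601 the counts were 3 and 91 (log2 fold change -4.29, edgeR adjusted p = 0.00258), and the ratio was 19.8 with an interval of 6.56 to 97.8. The third described loss, at 50170351, held 18 and 31 counts in Control and 2 and 0 in Dox (log2 fold change -3.91, edgeR adjusted p = 0.0138). Its counts were 40 and 17 in Etop and 16 and 8 in DoxEtop, and no comparison for etoposide passed the test there. None of the 3 was called without Control replicate 2, Dox replicate 1 or Dox replicate 2, and no 12q13 window was. Limma-voom called 0 windows and DESeq2 7.

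With etoposide present in both groups, DoxEtop against Etop gave 149 lower and 2 higher windows by edgeR, or 3.69% of the windows against 2.88% of all windows (2.43% lower and 0.45% higher). The window at 51441951 had 3 counts in both DoxEtop libraries together and 89 in both Etop libraries (log2 fold change -4.56, edgeR adjusted p = 0.000191). The ratio of pooled levels was 26.8, with a 95% counting interval of 8.88 to 132. At 54674301 the log2 fold change was -4.35 (edgeR adjusted p = 0.00144), a call that was lost without Etop replicate 1 or DoxEtop replicate 1 (edgeR adjusted p of 0.211 and 0.150).

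The lowest fold change was at 53644901, a region of a single window. It held 64 and 21 counts in Etop, 0 and 2 in DoxEtop, 10 and 26 in Control, and 7 and 5 in Dox. Both DoxEtop libraries were below every other library. Dox and Control libraries overlapped in CPM, at 1.33 and 1.10 in Dox against 1.20 and 3.89 in Control (log2 fold change -1.02, edgeR adjusted p = 0.617). DoxEtop against Etop gave a log2 fold change of -5.04 (edgeR adjusted p = 0.000390), and the call was lost without DoxEtop replicate 1 (adjusted p = 0.0884). The difference between the 2 inductions, tested as the interaction, was -4.02 on the log2 scale (unadjusted p = 0.00115) and did not pass after adjustment (edgeR adjusted p = 0.99999).

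The 2 higher windows were 48099501-48099650 and 49629201-49629350, named after their values were seen. The first held 32 and 25 counts in DoxEtop, 7 and 8 in Etop, 21 and 15 in Control, and 14 and 8 in Dox (log2 fold change 2.02, edgeR adjusted p = 0.0449). The second held 24 and 28 counts in DoxEtop against 7 and 6 in Etop (log2 fold change 2.11, edgeR adjusted p = 0.0383). In both, the DoxEtop libraries were above all others in CPM. The count of called windows rested on single libraries, at 21 without Etop replicate 1, 338 without Etop replicate 2 and 2 without DoxEtop replicate 1. Limma-voom called 0 windows and DESeq2 32.

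Dox against Control and DoxEtop against Etop share no library, so their values can be set beside each other. Their calls are not separate, since 1 fit took the spread from all 8 libraries and every window passed 1 minimum summed over them. Of the windows called lower, 36 were called in both, which is 51.4% of the 70 and 24.2% of the 149, in 19 regions. Over all windows the shares were 57.6% of 2172 and 20.1% of 6226. All of the 70 had a fold change below 0 in DoxEtop against Etop, and 97.3% of the 149 did in Dox against Control, where over all windows the shares were 99.8% and 97.3%. Over the 4093 overlapping windows the log2 fold changes of these comparisons correlated at 0.613 (Pearson) and 0.585 (Spearman), given as a description. The sign was the same in 71.5% of 12q13 windows and in 67.3% of all windows.

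**Figure D5:**
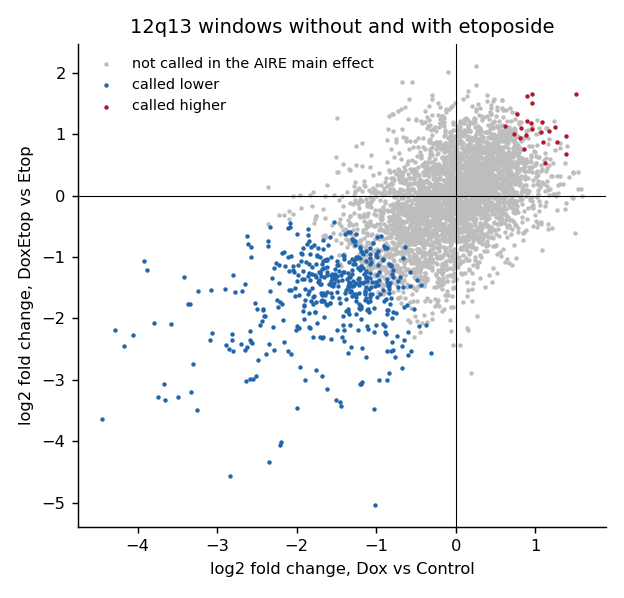
The log2 fold change of each 12q13 window in DoxEtop against Etop (vertical) and in Dox against Control (horizontal), which share no library; colour marks windows called lower (blue) or higher (red) in the AIRE main effect, which was fitted on the same 8 libraries. The 446 lower windows lie in the lower left and the 23 higher ones in the upper right.

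DoxEtop against Control, which shares libraries with both comparisons above, gave 93 lower and 5 higher windows by edgeR, or 2.39% against 1.64% of all windows (1.48% lower and 0.154% higher). The described losses were at 51441951 (log2 fold change -4.59, edgeR adjusted p = 0.000303), 53902501 (-3.89, adjusted p = 0.00447) and 54674301 (-3.60, adjusted p = 0.0159). The 5 higher windows lay in 2 places, at 49453651 and 49453701 and at 53893151, 53893201 and 53893251, the last of which belong to the region of the main gain. No 12q13 window was called in this comparison without Control replicate 2 or without DoxEtop replicate 1, and 151 and 162 were called without Etop replicate 1 and Etop replicate 2. Limma-voom called 0 windows and DESeq2 16.

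Etoposide alone was accompanied by no called change in 12q13. In the model over all 8 libraries edgeR called 0 of the 4093 windows for etoposide, as it did over the whole table (0%). At an unadjusted p under 0.05, 85 windows were lower and 147 higher, or 5.67% of the windows against 5.83% of all windows, and DESeq2 and limma-voom called 0 of them. Etop against Control also gave 0 calls (0% of all windows), with 84 lower and 101 higher windows at an unadjusted p under 0.05 (4.52% against 5.57%). DoxEtop against Dox gave 0 calls (0% of all windows), with 90 and 93 (4.47% against 4.26%). The interaction of AIRE induction and etoposide gave 0 calls (0% of all windows), with 91 and 85 (4.30% against 4.14%), and in each of these 3 comparisons DESeq2 and limma-voom called 0 windows as well.

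The windows with the smallest p for etoposide are given as values. At 57119251 the libraries without etoposide held 39 and 53 counts (Control) and 19 and 17 (Dox), and those with it 10 and 17 (Etop) and 6 and 8 (DoxEtop) (log2 fold change -1.38, edgeR adjusted p = 0.639). Levels with etoposide, 1.12 to 3.73 CPM, overlapped those without it, 3.62 to 7.94 CPM. At 53448401 the values without etoposide were 6 and 24 counts (Control) and 10 and 8 (Dox), and those with it 62 and 26 (Etop) and 15 and 19 (DoxEtop) (log2 fold change 1.40, edgeR adjusted p = 0.639). The 2 Etop libraries stood highest there, and DoxEtop replicate 1, at 2.80 CPM, lay below Control replicate 2, at 3.59 CPM.

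Within induced cells, the window at 52430801 held 9 and 4 counts in Dox and 28 and 31 in DoxEtop, with 21 and 23 in Control and 41 and 16 in Etop (log2 fold change 2.09, edgeR adjusted p = 0.99989). At 57985401 the log2 fold change was 2.25 (edgeR adjusted p = 0.99989). For the interaction, the window at 52766401 held 20 and 28 counts in Control, 40 and 20 in Etop, 15 and 21 in Dox, and 6 and 1 in DoxEtop, with an interaction of -3.08 on the log2 scale (edgeR adjusted p = 0.99999). Only the DoxEtop libraries were low there. None of these windows passed the test.

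Small changes were seldom recovered in simulation. On simulated counts over 256141 windows, the edgeR test of the AIRE main effect recovered 75% of 4-fold changes but 8% of 2-fold changes. For Dox against Control the figures were 22% and 0%. Most simulated 2-fold changes were thus missed. The simulation changed 100 windows at each fold and drew all windows independently with 1 common spread. In the data 7.44% of windows were called for the AIRE main effect, so the cut on p was less strict there. The window at 48551301, for example, was called at a log2 fold change of -0.96. The rates are therefore not the sensitivity of the fits used here. A window without a call was not shown to be unchanged.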

How the data were processed

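FAIRE libraries of AIRE-Tet cells (2 per group, 4 groups) were sequenced as 100 bp paired-end reads, per the labels' protocols. The authors deposited raw counts per 150 bp window for the 8 libraries. Trim Galore, Bowtie2, Bowtie and hg19 are named in the submitters' processing notes. The sources used here do not say how windows were chosen and counted or how duplicates and input were treated. Inputs, window sequences, gene annotation and the gene lists drawn up for this interval were not used here.

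All 256141 windows were fitted with edgeR 4.0.16 (R 4.3.3; TMM scaling, quasi-likelihood F test, two-sided, Benjamini-Hochberg adjustment over all windows, threshold 0.05). An additive model of induction and etoposide (5 residual degrees of freedom, biological coefficient of variation 26.3%) gave the main effects, and a model with 1 mean per group (4 residual degrees of freedom, 26.4%) gave the other comparisons. filterByExpr removed 0 windows. Windows with gaps of up to 100 bp were merged and Simes' p was adjusted over all 35741 regions. Intervals of pooled count ratios are exact 95% binomial intervals. p-values measure the spread between these biological replicates. The alternatives were DESeq2 1.42.0, limma-voom (limma 3.58.1), other scalings, a filter on level, a replicate block, a merging gap of 500 bp and each library left out. Fits were tested on simulated counts.

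Described windows are, 1 per region, those of smallest p in the regions called by Simes' p. For the AIRE main effect they are the 8 lowest and up to 8 highest (2 were found) by log2 fold change among regions whose groups did not overlap in CPM, and the strongest window of the 6 strongest regions. For other comparisons they are the 3 lowest and up to 3 highest, or, with no call, the 2 windows of smallest p as values only. The interval, lists and rules were chosen with earlier results of these data known.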

Additional observations from a re-analysis of the deposited data

Results flagged for a closer look

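Among 56 sets of 4 libraries checked for a library apart from the rest, 1 stood out, and chance alone marks about 1 in 20 such sets. In the window 48551301-48551450, the strong site that was lower with AIRE induction, Dox replicate 2 stood at 4.19 CPM, while the other 3 induced libraries stood between 6.33 and 6.67 CPM. Its gap to the nearest of them was 0.861 of the range of the group. Without Dox replicate 2 the log2 fold change of this window was -0.83 (edgeR adjusted p = 0.0538).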

How the results depend on the processing

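For the AIRE main effect, the 469 called 12q13 windows became 13 with limma-voom and 276 with only windows at or above the median level tested, 451 with a replicate block, and 189 to 532 with 1 library left out. The 127 regions became 1, 81 and 118, and 53 to 141. For Dox against Control the 70 windows became 7 with DESeq2, 0 with limma-voom, 22 with loess offsets along the mean log count (chosen after seeing the data) and 51 with the block, and 0 to 138 with 1 library left out (0 without Control replicate 2, Dox replicate 1 or Dox replicate 2, 138 without Control replicate 1, 112 without Etop replicate 2). For DoxEtop against Etop the 151 became 32, 0, 85 and 138, and 2 to 338. For DoxEtop against Control the 98 became 16, 0, 57 and 88, and 0 to 162. For Etop against Control 0 to 6 were called with 1 library left out, 6 of them without Etop replicate 2, where the window at 57119151 had a log2 fold change of -2.70 (edgeR adjusted p = 0.0133). The etoposide main effect, DoxEtop against Dox and the interaction gave 0 under every setting run. Deviations of replicates correlated at -0.0681 to 0.119 between groups, so no strong effect shared by replicate number was seen. This cannot show whether libraries were prepared in pairs, and the block rests on the replicate number only. Fold changes of described windows kept direction and side of the threshold in 474 of 539 values, lost the call in 57, gained it in 1 and changed sign in 7. Those 7 were 0.27 at 53902451, 0.22 at 54674301 and 0.10 at 53773151 with loess offsets along the mean log count, and, at 53693401 (-0.03), 0.0022 with column totals and values above 0 without Control replicate 2 (0.0084), Dox replicate 1 (0.093) or DoxEtop replicate 2 (0.011), within a range of -0.15 to 0.093 with 1 library left out. Counts per window were low, at a median of 168 over 8 libraries, and the cause of these differences between settings was not tested.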

Other observations

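The borders of the interval fell in stretches with few windows. The last window before it, at 47474701, held 12 and 34 counts in Control, 29 and 19 in Etop, 16 and 17 in Dox, and 13 and 14 in DoxEtop (log2 fold change of the AIRE main effect -0.29, edgeR adjusted p = 0.685). The first window of the interval, at 48099251, had a log2 fold change of 0.54 (edgeR adjusted p = 0.439) and the last, at 58335701, one of -0.76 (edgeR adjusted p = 0.246). The first window after it, at 58934401, held 22 and 35 counts in Control, 49 and 17 in Etop, 2 and 2 in Dox, and 3 and 5 in DoxEtop. Its induced libraries were all below the others (log2 fold change -2.96, edgeR adjusted p = 2.51e-05), so the next window beyond the interval, though not close to its border, also held a deep loss.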
